A study of Mus musculus with 6 samples.

Results

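The liver makes most of the proteins of blood clotting and of the complement system, and 38 genes for such proteins were followed in liver RNA-seq of mice fed a high-fat diet (HFD). The members are 19 coagulation and 19 complement genes of a list chosen by name, taken as the rows that carry their symbols among the 45777 genes of the count table. All 38 were found and tested, among 17274 genes tested in all. The 6 livers came from male C57BL/6 mice on the HFD, with 1 library per mouse and 1 batch in the labels. The 3 LT mice were Fpn fl/fl littermates, with both alleles of Slc40a1 (ferroportin, the iron exporter) floxed and no Cre. The 3 Fpn-LKO mice carried the same floxed alleles and Alb-Cre, a transgene in which the albumin promoter drives Cre in hepatocytes, so that other liver cells keep the gene. The floxed allele came from a 129S stock and the line was backcrossed to C57BL/6J. The age of the mice and the weeks on the diet at collection are not given in the labels, and LT and Fpn-LKO mice on another diet were not analysed here.

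Coagulation is a chain of serine proteases that ends with thrombin cutting fibrinogen to fibrin. The contact system and tissue factor start it, factor V and its like speed it, serpins and protein C hold it back, and plasmin dissolves the clot. Complement is a second chain of proteases, started by C1q on antibody, by mannose-binding lectins on sugars or by factor B with C3 itself. Its last step inserts C5b, C6, C7, C8 and C9 into a membrane as a pore. Hepatocytes secrete nearly all of these proteins, whereas C1q comes mainly from macrophages, which in the liver are the Kupffer cells. Many of the genes are also acute-phase genes, which hepatocytes transcribe more strongly under interleukin-6 and related signals.

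Total counts lay between 43086184 and 47778683 per library, of which 2.96% to 3.78% fell on the 38 members, and no member had fewer than 873 reads in any library. Slc40a1 had 154, 180.3 and 126 CPM (counts scaled to library size by TMM) in LT 1, 2 and 3, and 143, 143 and 176 CPM for those labelled Fpn-LKO 1, 2 and 3. The count of the floxed gene was not reduced where the label reads Fpn-LKO (a log2 fold change of 0.0073, standard error 0.16). It covers the whole gene in all cells of the liver, and reads over the floxed part were not counted apart. The study reported loss of ferroportin in hepatocytes of Fpn-LKO mice by other assays. Every direction below rests on the labels. The hepatocyte markers were present, and libraries of the same genotype differed by more than sampling noise (chi-square per degree of freedom 65.8 to 322). The RNAs Rn7s1, Rn7s2, Rn7sk, Rpph1 and Rmrp, which carry no poly(A) tail, took 3.29% to 10.2% of the counts. Their share was 7.65% to 8.76% for LT and 10.2%, 3.29% and 4.49% in Fpn-LKO 1, 2 and 3.

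Levels of the members spanned 2 orders of magnitude. On the FPKM scale, which divides by transcript length and allows genes to be compared, the 3 fibrinogen chains were the highest, with means over the 6 livers of 1910.4 for Fgb, 1537 for Fgg and 979 for Fga. Kng1 (kininogen, the precursor of bradykinin, 833), Serpinc1 (antithrombin, 731), C3 (the hub of complement, 642) and F2 (prothrombin, 601) followed. The lowest were Masp1 (a protease of the lectin pathway) at 15.6, C1qb at 18.5, F11 (factor XI) at 24.1 and F7 (factor VII) at 25.4 FPKM.

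**Figure D1:**
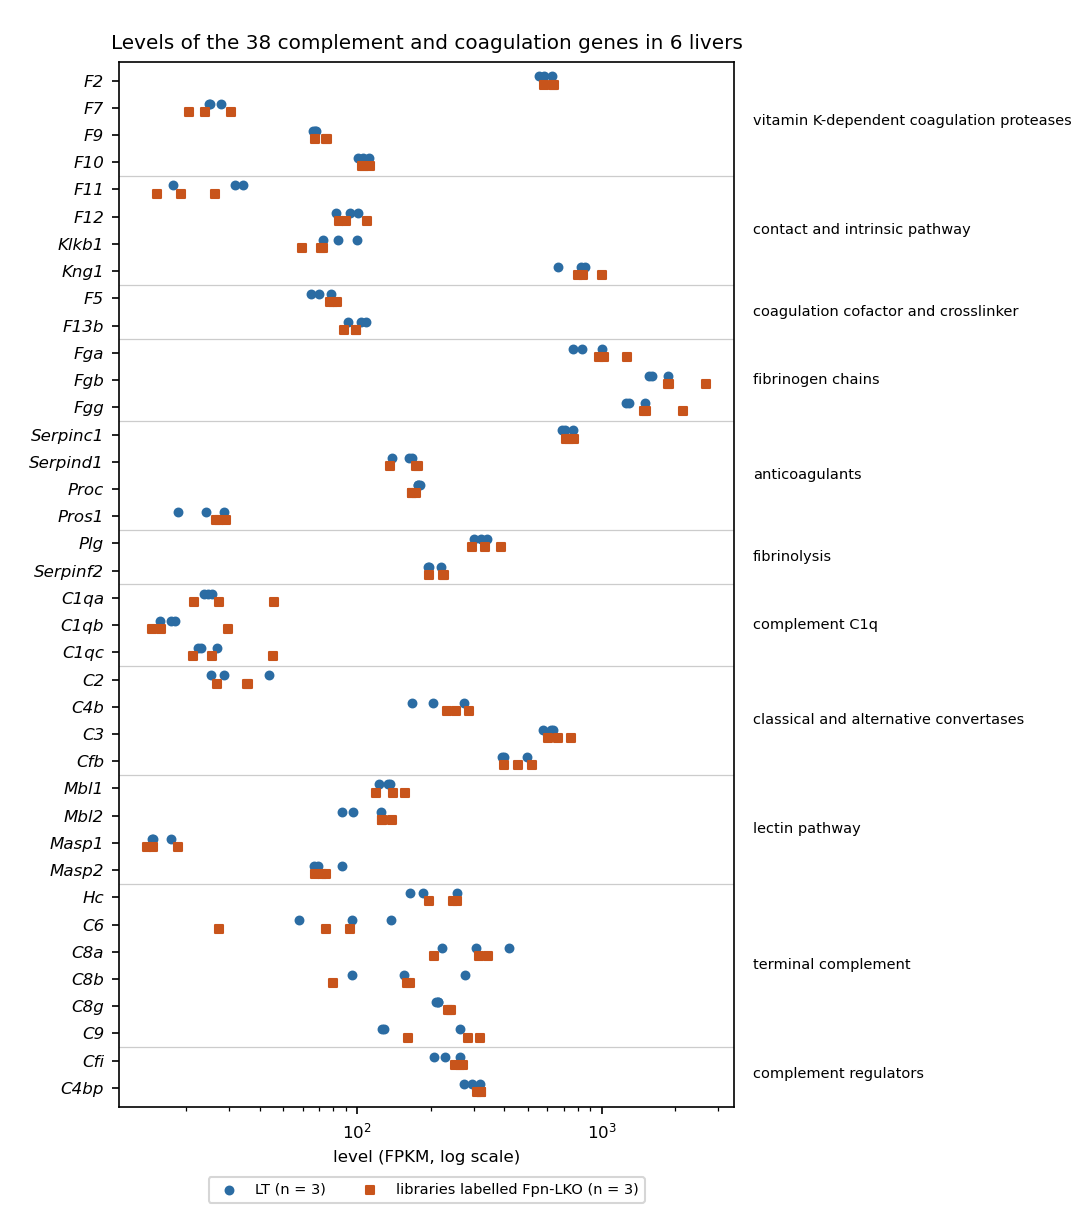
Each point is the FPKM of a gene in 1 liver on a log axis, with circles for LT and squares for the libraries labelled Fpn-LKO (n = 3 each), and genes ordered by role. Fibrinogen chains sit at the right, C1q chains, F7, F11, Pros1 and Masp1 at the left, and circles and squares of most genes interleave.

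Between the genotypes, none of the 38 members passed an adjusted p of 0.05 by the quasi-likelihood test of edgeR, adjusted over all genes tested after Benjamini and Hochberg (lowest adjusted p = 0.982), where 4 genes, or 0.0232% of all tested, did. DESeq2 called 0 members against 0.417% of all genes (lowest adjusted p of a member 0.843), and edgeR's exactTest called 0 against 0.365%. At an unadjusted p under 0.05 by the quasi-likelihood test there was 1 member, Klkb1, against 4.80% of all genes, or 830. The groups did not overlap for 4 members, or 10.5%, against 10.6% of all genes, which is a share near the background and no result about the members. All 3 libraries labelled Fpn-LKO lay above all 3 LT libraries for Mbl2 and C8g, where 5.25% of all genes did so, and below them for Klkb1 and Proc, where 5.34% did.

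Log2 fold changes of the members, libraries labelled Fpn-LKO over LT, ran from -0.60 for C6 to 0.53 for C9. Their median was 0.077, beside -0.0040 over all genes tested, and 28 were positive and 10 negative. Mice of the same genotype differed in the median deviation of the members by an SD of 0.11, which exceeds that median. The split was 22 to 16 without LT 1, 23 to 15 without Fpn-LKO 3 and 32 to 6 without LT 3. The members were measured more closely than most genes. Their median standard error was 0.16 on the log2 scale, beside 0.26 over all genes, and their median LT level was 416 CPM beside 5.68 CPM. For 21 of the 38 the 95% interval of the difference lay within a 1.5-fold change in either direction, and for the other 17 it did not. For F11, C6, C8b and C9 the interval reached a 2-fold change. The test missed the threshold for all 38, which does not show that the levels were equal.

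**Figure D2:**
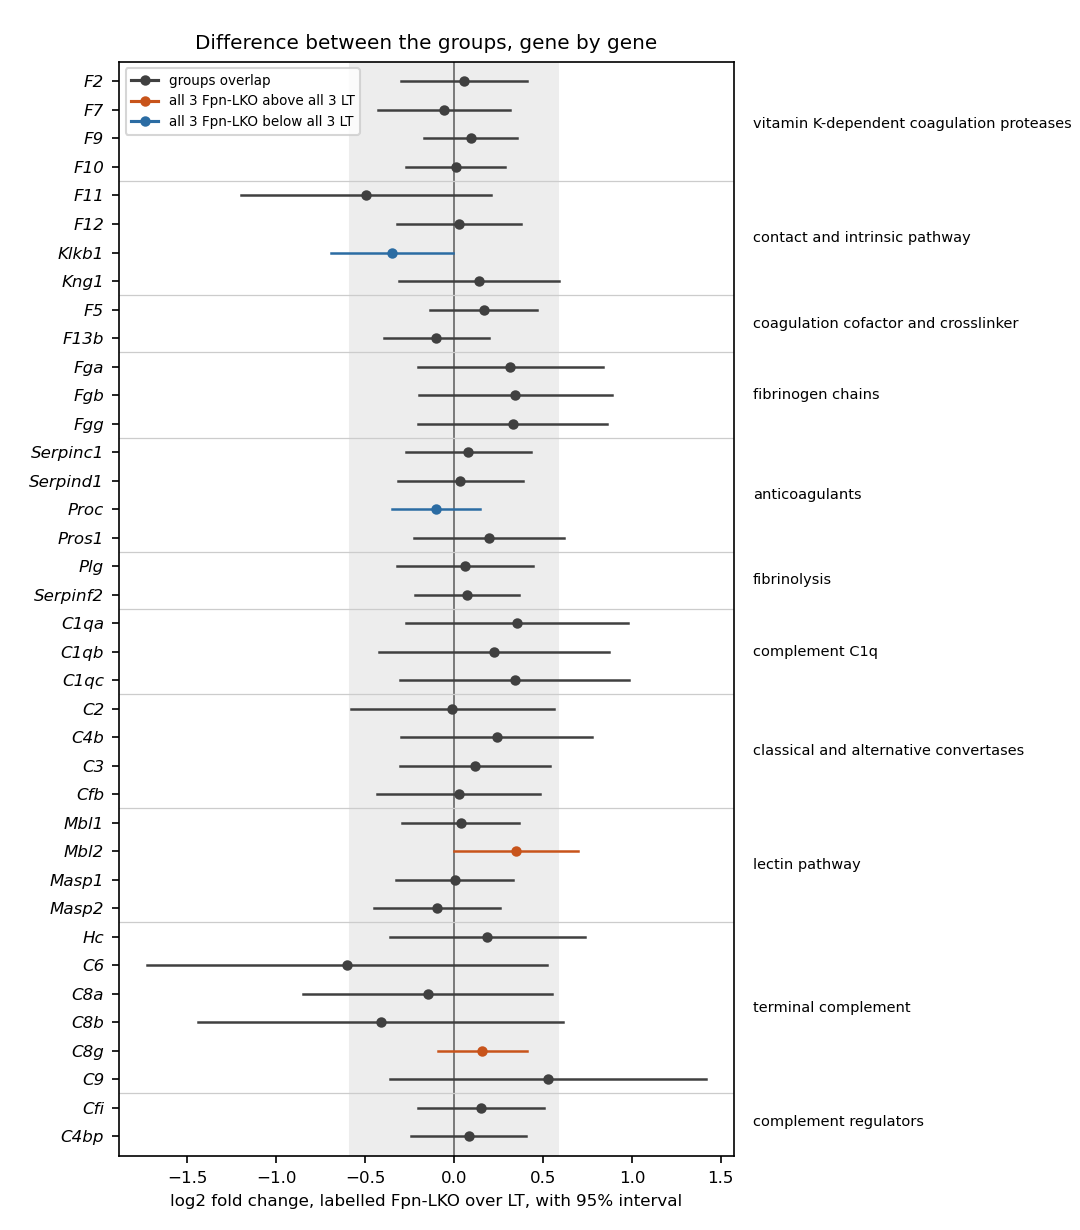
Points are log2 fold changes on CPM, libraries labelled Fpn-LKO over LT (n = 3 each), and lines their 95% intervals from edgeR's quasi-likelihood fit; the grey band marks a 1.5-fold change in either direction. All intervals except that of Klkb1 include 0, and the widest belong to C6, C8b, C9 and F11.

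The vitamin K-dependent proteases F2, F7, F9 and F10, which need vitamin K to bind membranes, had the lowest median SD between mice of a genotype among the groups of members, 0.096 on the log2 scale, with F7 the least even of the 4 at 0.22. Prothrombin (F2) had 1352, 1298 and 1555 CPM for LT 1, 2 and 3 and 1481, 1485 and 1399 CPM for those labelled Fpn-LKO, so that all of the latter lay inside the LT range. F10, the protease that makes thrombin, had means of 336 ± 21.1 and 338 ± 20.7 CPM (SD, n = 3 each). F9, the hemophilia B factor, had 215 ± 5.72 and 229.6 ± 17.8 CPM. F7, which starts clotting with tissue factor, had 57.9 ± 6.00 and 55.6 ± 10.7 CPM. Their log2 fold changes lay between -0.058 and 0.094, and all 4 intervals stayed within a 1.5-fold change. F7 and F10 lie 1499 bases apart on chromosome 8 of GRCm38, and F2 overlaps 8283 bases of Ckap5, a gene with far fewer reads.

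In the contact and intrinsic pathway, Klkb1, plasma prekallikrein, which frees bradykinin from kininogen, was the member with the smallest p. Klkb1 had 599, 504 and 467 CPM for LT 1, 2 and 3 and 432, 430.4 and 369 CPM for those labelled Fpn-LKO. The groups did not overlap, but the gap between the lowest LT and the highest Fpn-LKO library was smaller than the spread within LT. The log2 fold change was -0.35 (standard error 0.15, 95% interval -0.69 to -0.0061, unadjusted p = 0.0469 and adjusted p = 0.982 in the edgeR quasi-likelihood fit). F11, which belongs to the same pathway and lies 4633 bases from Klkb1 on chromosome 8, had 45.9, 85.2 and 97.0 CPM for LT and 51.0, 69.97 and 40.9 CPM for those labelled Fpn-LKO. LT 1 alone broke the separation, and the log2 fold change of -0.49 (standard error 0.30) had an interval from -1.20 to 0.21. F12, the factor that starts contact activation, had 214 ± 28.9 and 218 ± 26.7 CPM (SD, n = 3 each). Kng1 had 1841 ± 256 and 2029.8 ± 306 CPM, and its transcript matches that of Kng2 at 91.8% identity over 1345 bases, so that reads could be shared between the pair. Kng2, named after its values were seen, had means of 265 and 299 CPM.

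F5, the cofactor of factor X, had 618 ± 41.0 CPM for LT and 693 ± 28.4 CPM for those labelled Fpn-LKO (a log2 fold change of 0.17, standard error 0.13), with LT 1 above Fpn-LKO 1. F13b, the carrier chain of the fibrin crosslinker factor XIII, had 284 ± 26.3 and 265 ± 19.0 CPM (log2 fold change -0.10, standard error 0.13). Both intervals stayed within a 1.5-fold change.

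The 3 fibrinogen chains lie together on chromosome 3 of GRCm38, Fgg from 83007724 to 83015056, Fga from 83026153 to 83033627 and Fgb, on the opposite strand, from 83042246 to 83049863. The chains assemble into fibrinogen in equal numbers, and the genes are known to answer to interleukin-6. Their promoters are shown because the chains varied together across the 6 livers. Each runs 5′ to 3′ on the gene's strand, with 250 bases before the RefSeq start and 50 from it on, from RefSeq on GRCm38.p6. Capitals mark matches, on either strand, to the motifs searched in all promoters.

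Fga, chr3:83025903-83026202, plus strand: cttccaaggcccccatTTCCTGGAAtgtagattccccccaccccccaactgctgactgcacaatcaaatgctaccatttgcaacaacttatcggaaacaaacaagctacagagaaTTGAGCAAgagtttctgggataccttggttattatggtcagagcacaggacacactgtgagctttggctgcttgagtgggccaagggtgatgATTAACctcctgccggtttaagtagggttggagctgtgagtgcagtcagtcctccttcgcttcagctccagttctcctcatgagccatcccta
Fgb, chr3:83049814-83050113, minus strand: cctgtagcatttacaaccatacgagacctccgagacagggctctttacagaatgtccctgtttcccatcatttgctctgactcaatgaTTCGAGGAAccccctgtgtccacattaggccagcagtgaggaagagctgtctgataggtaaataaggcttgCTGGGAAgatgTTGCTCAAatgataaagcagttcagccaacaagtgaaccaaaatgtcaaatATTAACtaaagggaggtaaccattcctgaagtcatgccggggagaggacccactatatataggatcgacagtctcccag
Fgg, chr3:83007474-83007773, plus strand: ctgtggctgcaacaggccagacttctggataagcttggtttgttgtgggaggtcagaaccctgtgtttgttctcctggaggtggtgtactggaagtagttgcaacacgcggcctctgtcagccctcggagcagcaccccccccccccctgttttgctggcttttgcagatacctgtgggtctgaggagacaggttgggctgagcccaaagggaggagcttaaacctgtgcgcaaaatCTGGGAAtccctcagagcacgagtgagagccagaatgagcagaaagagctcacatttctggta

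The motifs were the HNF1 half-site GTTAAT, the IL-6 response element CTGGGAA, the STAT motif TTCNNNGAA, the C/EBP motif TTGCNNAA, the HNF4 motif CAAAGTCC and the TATA box TATAAA. The IL-6 element and the STAT motif can overlap, and did in the windows of F9 and Masp2. The Fgb window held the HNF1, IL-6, STAT and C/EBP letters, the Fga window all of these but the IL-6 element, and the Fgg window the IL-6 element only. Of the 29 members with a promoter in the table, 8 held the HNF1 half-site, or 27.6%, beside 7.10% of all 32851 promoters. The C/EBP motif was in 8 (27.6% beside 10.8%), the STAT motif in 6 (20.7% beside 8.30%), the IL-6 element in 5 (17.2% beside 11.1%), the TATA box in 3 (10.3% beside 13.6%) and the HNF4 motif in 0 (beside 1.42%). A match is a description of these letters and not of binding.

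Fga had 2913, 3209.7 and 4133 CPM for LT 1, 2 and 3 and 3747, 3955 and 5056 CPM for those labelled Fpn-LKO. Fgb had 3120.2, 3073 and 3899.5 CPM for LT and 3644, 3721 and 5440.4 CPM for those labelled Fpn-LKO. Fgg had 2465, 2559 and 3173 CPM for LT and 2913, 3016 and 4371 CPM for those labelled Fpn-LKO. For all 3 chains Fpn-LKO 3 was the highest liver and LT 3 the next, so that both libraries set the difference. The log2 fold changes were 0.31 for Fga, 0.34 for Fgb and 0.33 for Fgg, with standard errors of 0.22 to 0.23, 95% intervals of -0.21 to 0.84, -0.20 to 0.89 and -0.20 to 0.86, and an adjusted p of 0.982 for each in the edgeR quasi-likelihood fit. Without Fpn-LKO 3 they were 0.17, 0.13 and 0.12, and without LT 3 they were 0.47, 0.46 and 0.45. The balance of the chains varied little. Fga made up 20.9% to 23.1% of the summed FPKM of the chains, Fgb 42.3% to 44.2% and Fgg 34.3% to 35.2% over the 6 livers.

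Among the anticoagulants, Serpinc1, which blocks thrombin and factor Xa, had 1699 ± 115 and 1796 ± 65.6 CPM (SD, n = 3 each). Its transcript matches a Zbtb37 transcript at 100% identity over 2942 bases, and Zbtb37 had 530 reads on average. Serpind1, heparin cofactor II, had 398 ± 47.2 and 408 ± 48.6 CPM. Proc, protein C, had 336, 339.5 and 354 CPM for LT and 321, 320.0 and 318 CPM for those labelled Fpn-LKO. These groups did not overlap, yet the difference was small (log2 fold change -0.10, 95% interval -0.35 to 0.15). Pros1, the protein S cofactor of protein C, varied more, from 70.5 to 116 CPM for LT and from 101 to 114 CPM for those labelled Fpn-LKO (a log2 fold change of 0.20, standard error 0.18). In fibrinolysis, Plg, plasminogen, had 1039.6 ± 104 and 1085 ± 143 CPM. Its transcript matches a transcript of Slc22a3 (173 reads on average) at 100% identity over 422 bases. Serpinf2, the plasmin inhibitor, had 525 ± 29.0 and 552 ± 32.9 CPM. The sum of all 19 coagulation members was 17820.5 to 21407 CPM for LT and 20207 to 24987 CPM for those labelled Fpn-LKO, and in each liver the 3 fibrinogen chains held the largest part of it.

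The C1q chains, which recognise antibody-bound targets, lie within a stretch of chromosome 4 from 136880126 to 136898844. C1qa had 29.4, 32.1 and 32.5 CPM for LT 1, 2 and 3 and 33.9, 27.2 and 59.2 CPM for those labelled Fpn-LKO. C1qb had 19.8, 23.1 and 23.5 CPM for LT and 19.9, 18.7 and 38.9 CPM for those labelled Fpn-LKO, and C1qc 27.5, 32.9 and 30.7 against 31.5, 26.3 and 57.4 CPM. Fpn-LKO 3 stood above all other livers for each chain, while Fpn-LKO 2 was the lowest of the 6. The log2 fold changes of 0.35, 0.22 and 0.34 (standard errors 0.27 to 0.28) rested on that library, and without it they were -0.037, -0.20 and -0.070. Of the 12 Kupffer cell and macrophage markers, 9, or 75%, were highest in Fpn-LKO 3 as well, where 17.9% of all genes tested were. The other 3, Marco, Cd163 and Mrc1, were highest in LT 2. The summed level of the 12 was 442 to 578 CPM for LT and 435, 367 and 745 CPM in Fpn-LKO 1, 2 and 3, with none of them at 0 reads. The part of these markers in the C1q values was not tested. In bulk liver, fewer cells of a type and less RNA per cell cannot be told apart. As with fibrinogen, the chains kept their balance, with C1qa at 36.4% to 39.9%, C1qb at 22.9% to 26.7% and C1qc at 35.6% to 38.01% of their summed FPKM.

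Of the genes for the C3 convertases, the enzymes that cut C3, C3 itself had 3605 ± 222 and 3909 ± 397 CPM (SD, n = 3 each). C2, the protease of the classical convertase, had 102 ± 34.7 and 101 ± 17.1 CPM, and Cfb, factor B, its counterpart in the alternative pathway, 1386 ± 245 and 1409.6 ± 215 CPM. C2 and Cfb lie 88 bases apart on chromosome 17, and a GENCODE read-through transcript covers parts of both. C4b, which binds C2, had 1034, 1272 and 1809.9 CPM for LT and 1564, 1789 and 1505 CPM for those labelled Fpn-LKO (a log2 fold change of 0.24, standard error 0.23). The spread of C4b was wide in LT, where LT 3 was the highest liver of all 6, and narrow in the other group. Its transcript is 96.0% identical to that of C4a over 5378 bases, so reads of the pair are uncertain. C4a, named after its values were seen, had 91.6, 195 and 405 CPM for LT and 124, 273 and 249.7 CPM for those labelled Fpn-LKO, again with LT 3 on top.

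The lectin pathway starts with mannose-binding lectins, which carry the proteases encoded by Masp1 and Masp2. Mbl2, mannose-binding lectin C, had 157, 108 and 126 CPM for LT and 173, 161 and 165 CPM for those labelled Fpn-LKO. All libraries labelled Fpn-LKO lay above LT 1 by a narrow margin and above LT 2 and LT 3 by a wide one. The log2 fold change was 0.35 (standard error 0.15, 95% interval -0.0021 to 0.70, unadjusted p = 0.0511 and adjusted p = 0.982 in the edgeR quasi-likelihood fit). Its sister lectin Mbl1 had 329 ± 18.8 and 338 ± 48.1 CPM (SD, n = 3 each), with Fpn-LKO 1 the lowest and Fpn-LKO 3 the highest liver. Masp1 had 64.9 ± 5.38 and 65.1 ± 10.5 CPM and Masp2 199.9 ± 37.9 and 187 ± 8.10 CPM. Masp2 shares 3118 bases of its span with Tardbp, and 7 members in all overlap another gene with at least 100 reads on average, with reads in overlaps not assignable here.

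The terminal complement genes differed most between mice of the same genotype. C6, which joins C5b at the start of the pore, lies on chromosome 15 from 4727067 to 4804045, and the alpha and beta chains of C8 lie 11131 bases apart on chromosome 4, C8b from 104766317 to 104804548 and C8a from 104815679 to 104876487. The promoters of these 3 are shown because their levels followed each other across the livers from 2 chromosomes, with the same marks as above. The transcript starts behind the C6 and C8a windows lie inside the gene spans given here, and that of C8b at the edge of its span.

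C6, chr15:4726960-4727259, plus strand: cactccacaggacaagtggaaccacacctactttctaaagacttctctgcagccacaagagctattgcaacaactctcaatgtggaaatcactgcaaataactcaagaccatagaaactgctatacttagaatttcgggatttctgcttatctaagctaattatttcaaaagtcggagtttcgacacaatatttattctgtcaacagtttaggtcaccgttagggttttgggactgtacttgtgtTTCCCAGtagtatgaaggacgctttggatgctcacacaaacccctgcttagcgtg
C8a, chr4:104876349-104876648, minus strand: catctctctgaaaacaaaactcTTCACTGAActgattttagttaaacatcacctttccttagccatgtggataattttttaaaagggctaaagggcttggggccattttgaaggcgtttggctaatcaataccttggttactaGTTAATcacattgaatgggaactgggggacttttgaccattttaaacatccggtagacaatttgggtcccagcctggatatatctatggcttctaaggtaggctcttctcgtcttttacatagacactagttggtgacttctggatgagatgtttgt
C8b, chr4:104766067-104766366, plus strand: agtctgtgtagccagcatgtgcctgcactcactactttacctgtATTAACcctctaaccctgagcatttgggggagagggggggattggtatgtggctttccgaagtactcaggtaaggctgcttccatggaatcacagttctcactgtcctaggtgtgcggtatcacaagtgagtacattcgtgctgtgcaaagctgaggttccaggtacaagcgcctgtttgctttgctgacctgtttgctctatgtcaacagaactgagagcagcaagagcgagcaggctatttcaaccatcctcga

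The C8a and C8b windows each held an HNF1 half-site, the C8a window also the STAT letters, and the C6 window only the IL-6 element. The windows of C6, C8a and C8b shared no motif of the 6 between all 3.

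C6 had 186, 309.5 and 476 CPM for LT 1, 2 and 3 and 88.0, 305 and 247 CPM for those labelled Fpn-LKO. C8b had 244, 405 and 761 CPM for LT and 204, 415 and 439 CPM for those labelled Fpn-LKO. C8a had 903, 1260.2 and 1801 CPM for LT and 844, 1298 and 1437 CPM for those labelled Fpn-LKO. For all 3 genes Fpn-LKO 1 was the lowest liver, LT 1 the next and LT 3 the highest. Within a genotype the highest liver exceeded the lowest 2.56-fold in LT and 3.47-fold in the other group for C6, and 3.12-fold and 2.15-fold for C8b. The log2 fold changes of -0.60 for C6 (standard error 0.48, interval -1.73 to 0.52), -0.41 for C8b (standard error 0.44, interval -1.44 to 0.61) and -0.15 for C8a (standard error 0.30) were no larger than this spread. Without LT 3 they were -0.21 for C6, 0.12 for C8b and 0.14 for C8a, and without Fpn-LKO 1 they were -0.23, -0.14 and 0.050. The direction for C8a and C8b thus changed with a single library.

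C9, which polymerises to the ring of the pore, had 303, 313 and 683 CPM for LT 1, 2 and 3 and 389, 775 and 710.0 CPM for those labelled Fpn-LKO. LT 3, Fpn-LKO 2 and Fpn-LKO 3 formed the upper values and LT 1, LT 2 and Fpn-LKO 1 the lower ones, so that each genotype was on both sides. The log2 fold change was 0.53 (standard error 0.38, interval -0.36 to 1.42), and without LT 3 it was 1.02 with an adjusted p of 0.804 in the edgeR quasi-likelihood fit. Hc, the C5 gene, had 1019, 1170.2 and 1699 CPM for LT and 1219, 1559.7 and 1649.9 CPM for those labelled Fpn-LKO (a log2 fold change of 0.19, standard error 0.23). The C8 gamma chain, C8g, a lipocalin joined to the alpha chain, had 251, 257 and 273 CPM for LT and 289, 284 and 298 CPM for those labelled Fpn-LKO. C8g was the most even of the terminal genes, and its groups did not overlap (log2 fold change 0.16, 95% interval -0.093 to 0.41, adjusted p = 0.982 in the edgeR quasi-likelihood fit).

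**Figure D3:**
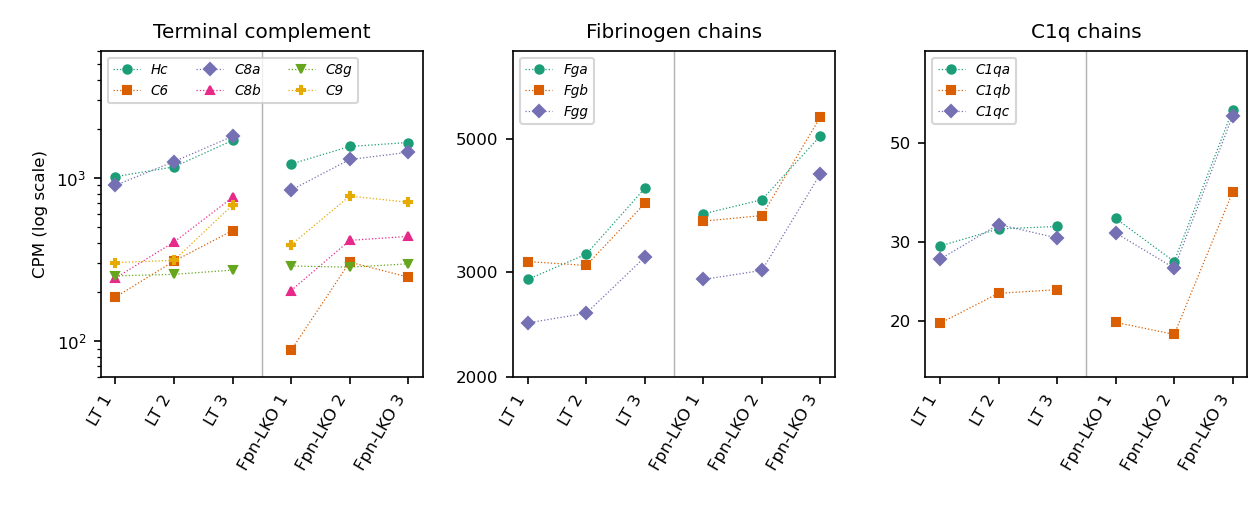
CPM on log axes in each liver for the terminal complement genes, the fibrinogen chains and the C1q chains, with LT to the left of the line and libraries labelled Fpn-LKO to its right; dotted lines only join the points of a gene. C6, C8a, C8b and C9 spread widely within both groups while C8g is flat, fibrinogen chains are highest in Fpn-LKO 3 and then LT 3, and C1q chains stand out in Fpn-LKO 3 alone.

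The 3 chains of C8, unlike those of fibrinogen and C1q, did not keep a fixed balance of transcripts. C8b made up 15.1% of their summed FPKM in Fpn-LKO 1, 18.0% in LT 1, 22.0% to 23.2% in LT 2, Fpn-LKO 2 and Fpn-LKO 3, and 30.5% in LT 3. The share of C8g ran the other way, from 45.9% in Fpn-LKO 1 to 23.5% in LT 3. That of C8a stayed between 38.9% and 45.9%. As shares of a common sum they are bound to each other, and the level of C8g was 289 CPM in Fpn-LKO 1 and 273 CPM in LT 3. The genotypes overlapped in the share of each chain, and no test was made of these shares.

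**Figure D4:**
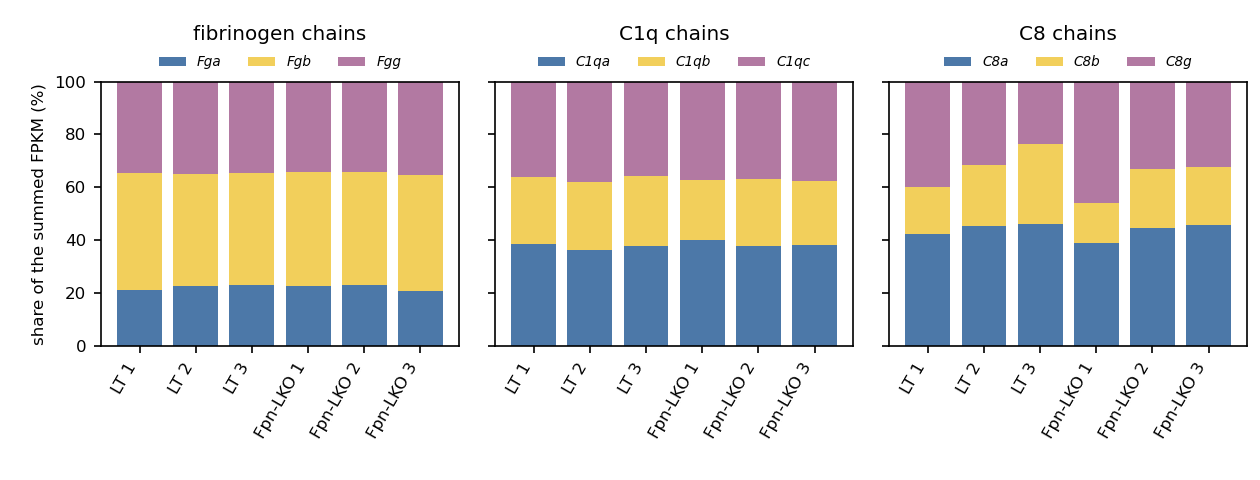
Stacked bars give the share of each chain in the summed FPKM of its complex, in percent, for each of the 6 livers. The fibrinogen and C1q bars are alike in all livers, whereas the C8b part runs from 15.1% to 30.5% and the C8g part from 45.9% down to 23.5%.

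The complement regulators Cfi, factor I, which cuts C3b and C4b, and C4bp, its cofactor, had 569 ± 90.5 and 631 ± 15.5 CPM, and 647 ± 72.5 and 684 ± 21.8 CPM, in LT and in the libraries labelled Fpn-LKO (SD, n = 3 each). Their log2 fold changes were 0.15 and 0.082, with intervals within a 1.5-fold change. The sum of the 19 complement members was 10829, 11582 and 15366 CPM for LT 1, 2 and 3 and 11765, 14438 and 13890.4 CPM for those labelled Fpn-LKO.

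Across the list, 1 liver led its group more often than the rest. LT 3 was the highest of the 3 LT livers for 29 of the 38 members, or 76.3%, where it was so for 36.6% of all genes tested. Among the libraries labelled Fpn-LKO, Fpn-LKO 3 was the highest for 19 members, or 50% (36.5% of all genes), and Fpn-LKO 1 for 5, or 13.2% (34.2% of all genes). Among the 17 acute-phase genes listed beside the members, LT 3 was the highest LT liver for 14, or 82.4%. Their summed level was 10692, 9123 and 20095 CPM for LT 1, 2 and 3 and 12323, 16222 and 20500.4 CPM in Fpn-LKO 1, 2 and 3. Saa1, an acute-phase gene named after its values were seen, had 27.0, 47.6 and 1189 CPM for LT and 69.4, 622 and 1069 CPM for those labelled Fpn-LKO, the same 3 livers being high as for C9. Of the 10 hepatocyte markers, LT 3 was the highest LT liver for 1 and LT 1 for 9. The hepatocyte content of the livers was not measured. The part of the acute-phase level in the values of the members was not tested. With any other mouse left out, the median log2 fold change of the members was 0.040 (LT 2) to 0.13 (Fpn-LKO 1). Leaving out LT 3 moved it from 0.077 to 0.14, a shift smaller than the SD of 0.11 between mice of a genotype. Then 0 members passed an adjusted p of 0.05, and 4 had an unadjusted p under 0.05 in the edgeR quasi-likelihood fit. They were Klkb1, Pros1, C4b and C9. The share of all genes at that p was not counted for that fit, so the 4 are no result about the members. Without LT 2, Fpn-LKO 1 or Fpn-LKO 3 there were 0 such members.

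The other genes of both systems, their liver regulators and acute-phase genes formed 4 lists of 95 genes, of which 86 were tested. None passed the adjusted threshold in the edgeR quasi-likelihood fit. In that fit 12 of the 86, all with higher means in the libraries labelled Fpn-LKO, had an unadjusted p under 0.05. Of all 17274 genes tested, 452 were higher and 378 lower at that level, or 4.80% in both directions. The lists were chosen with earlier results of these data known, so the 12 are no independent result. Of the 86, 60 had a positive and 26 a negative log2 fold change, with a median of 0.13. In the list of 30 other coagulation and fibrinolysis genes, 4 of 24 tested were at that level. They were Thbd, the thrombin receptor thrombomodulin that activates protein C (log2 fold change 0.84, standard error 0.29), Tfpi2, a protease inhibitor (0.34, standard error 0.12), Anxa2, which binds plasminogen (1.16, standard error 0.38), and F2r, the thrombin receptor PAR1 (0.44, standard error 0.15). In the list of 33 other complement genes, 2 of 30 tested were, Itgax (1.70, standard error 0.63) and Itgb2 (0.68, standard error 0.28), chains of complement receptor 4 on leukocytes. Itgax stayed under 3 CPM in all livers. Thbd had 2.03 to 4.16 CPM for LT and 5.53 to 6.64 CPM for those labelled Fpn-LKO. Anxa2 had 6.79 to 7.43 CPM for LT, and 27.0, 9.25 and 11.8 CPM in Fpn-LKO 1, 2 and 3.

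Of 15 liver regulators 2 were at that level, Hnf4a, a nuclear receptor that drives many clotting factor genes, and Foxa1, a pioneer factor. Hnf4a had 239, 250.2 and 265 CPM for LT and 310.3, 344 and 286 CPM for those labelled Fpn-LKO, with no overlap (log2 fold change 0.32, standard error 0.12, adjusted p = 0.982 in the edgeR quasi-likelihood fit). Foxa1 had 4.98, 5.36 and 3.84 CPM for LT and 6.08, 9.68 and 5.80 CPM for those labelled Fpn-LKO. Of 17 acute-phase genes there were 4, Orm3, Crp, Lbp and Steap4. Orm3, an orosomucoid gene at a low level, had 1.53, 2.56 and 3.00 CPM for LT and 6.77, 5.83 and 8.71 CPM for those labelled Fpn-LKO. Its log2 fold change was 1.59 (standard error 0.30), with an adjusted p of 0.509 in the edgeR quasi-likelihood fit, 1.93e-04 by DESeq2 and 0.00142 by exactTest. Orm1 and Orm2, of the same family, carry more reads in every liver. Whether the count of Orm3 holds reads of theirs was not tested. Crp had 102 ± 15.9 and 149.0 ± 12.7 CPM and Lbp, which binds bacterial lipopolysaccharide, 47.7 ± 2.38 and 67.8 ± 10.4 CPM, with no overlap of the groups in either. Steap4, a metalloreductase, had 181 ± 45.1 and 395 ± 262 CPM, with 696 CPM in Fpn-LKO 3.

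Markers of other cells were low beside the hepatocyte genes. The summed level was 314 to 407 CPM for 8 endothelial markers and 419 to 493 CPM for 8 stellate cell markers over the 6 livers. Neutrophil markers summed to at most 5 CPM and platelet markers to at most 3.38 CPM in any liver, with Ly6g, a defining neutrophil marker, at 0 reads in all 6, and lymphocyte markers to at most 36.1 CPM. Red cell markers ran from 351 to 941 CPM for LT and from 474 to 1243 CPM for those labelled Fpn-LKO.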

How the data were processed

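Liver RNA of 3 LT and 3 Fpn-LKO mice was sequenced. Per the labels, reads were processed with bcl2fastq 2.20.0, FastQC 0.11.7, HISAT2 2.1.0, Bowtie2 2.3.4.1 and StringTie 2.1.3b on mm10. The labels name a stranded mRNA kit and the methods a total RNA kit with ribosomal RNA removed, and the strand setting of the counting is not given in the sources used here. The authors deposited read counts per RefSeq gene, which StringTie derives from coverage, without normalization. Deposited FPKM and TPM values, both from StringTie, correct for transcript length, and the TPM sum to the same total in every library. FPKM served for levels between genes and shares of chains, and TPM for an alternative test.

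The main test was the non-robust quasi-likelihood fit of edgeR 4.0.16 (R 4.3.3) on TMM-scaled counts, and a gene with 0 reads in over 1 library was dropped. This kept 17274 genes, over which p-values were adjusted (Benjamini-Hochberg, threshold 0.05). All p-values are two-sided, and with 3 against 3 mice the smallest p of an exact permutation test is 0.1. Standard errors and 95% intervals were derived from the F statistic. The study's methods name exactTest, which was an alternative, with RLE and upper-quartile scaling, DESeq2 1.42.0, robust estimation, other filters, limma 3.58.1 on log2 TPM (pseudocount 1 or 0.1, mean TPM from 1 up), the replicate number as a block and leaving out each mouse. The procedure was tested on simulated data. Members and gene lists (other coagulation, other complement, liver regulators, acute-phase and cell markers) were chosen with earlier results of these data known. All members could be named, other listed genes only at an unadjusted p under 0.05, and marker genes beside their summed level. Near-identical transcripts were sought for the members only, with BLAST 2.17.0 in GENCODE transcripts (at least 90% identity over 200 bases). Matches to another gene were found for 9 members, for 6 of them to a gene with at least 100 reads on average. Positions and promoters are those of RefSeq on GRCm38.p6, the build of mm10, matched by gene identifier for all 38 members and for 29 promoters. No group of 3 mice was tested for outlying values.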

Additional observations from a re-analysis of the deposited data

How the results depend on the processing

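None of the 38 members passed an adjusted p of 0.05 under any of the 16 alternatives, and their median log2 fold change lay between 0.040 and 0.17. At an unadjusted p under 0.05 there was 1 member, and there were 12 other pathway genes and 830 of all genes. There were 0 such members with RLE scaling, exactTest and both limma fits and without LT 2, Fpn-LKO 1 or Fpn-LKO 3, and at most 4 in any setting. The share of all genes at that p was counted for the main fit only. DESeq2 and exactTest each called 1 other pathway gene and 72 and 63 of all genes, against 0 and 4 by the quasi-likelihood test, and limma on either TPM scale called 1 and 7. The other pathway gene was Orm3 each time. The cause was not tested. With the replicate block 0 of all genes passed. The same-numbered mice were not taken as pairs, since the labels do not say that the number marks a litter or day. The correlations of their deviations from the group means were 0.129, -0.0095 and 0.045. Those of differently numbered mice ran from -0.098 to 0.061. With 3 mice a group, these values cannot settle whether the mice were paired. Under the block Klkb1, Mbl2 and C6 had an unadjusted p under 0.05 in the edgeR quasi-likelihood fit. Leaving out each mouse in turn gave 0 to 6 of all genes, and log2 fold changes of -0.037 to 0.57 for C1qa and -0.070 to 0.55 for C1qc, which turned negative without Fpn-LKO 3 (adjusted p of 0.993 for C1qa and 0.982 for C1qc in the edgeR fit). On the TPM scale 32 members were positive and 6 negative, against 28 and 10 on counts, and on that scale the median over all genes tested was itself 0.083 to 0.097. With 3 mice a group, the interval of 17 members reached past a 1.5-fold change.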
